A study of Rattus norvegicus with 20 samples.

Results

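The glucocorticoid receptor gene Nr3c1, 7 genes that the receptor is known to induce (Fkbp5, Tsc22d3, Sgk1, Dusp1, Zbtb16, Klf9 and Errfi1) and the enzyme genes Hsd11b1 and Hsd11b2 were followed in the RNA of rat milk fat. They were found by symbol, and all 10 were among the 16748 genes of the deposited expression table. All 10 were above the table's lowest value in at least 1 library, as were 14022 genes in all, which were the genes tested. The animals were wild-type Sprague-Dawley dams given 1 injection on postnatal day 10 of the litter, either of lipolysaccharide (LPS, a bacterial endotoxin) or of saline free of pyrogen. Milk was taken 24 h later (P11) or 2 h later (P10), and there were 5 libraries each of LPS P11, saline P11, LPS P10 and saline P10 milk. Every dam, saline controls included, was under isoflurane and received 0.2 mL of oxytocin (20 USP per mL) before milking. There were 7 LPS and 7 saline dams, and 3 of each gave milk on both days. The expression columns name no dam, so the libraries of the 2 days are not fully independent and could not be paired.

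The glucocorticoid receptor waits in the cytoplasm in a complex with heat shock proteins and immunophilins. Once bound by corticosterone, the main glucocorticoid of the rat, it moves to the nucleus and raises or lowers the transcription of its target genes. In the lactating mammary gland, glucocorticoids act beside prolactin to keep milk protein genes transcribed, and the 11-beta-hydroxysteroid dehydrogenases set how much active hormone a cell sees. Milk fat globules carry slivers of the cytoplasm of the secretory cell, and milk also holds leukocytes and shed cells.

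The tissue label was checked against marker genes. All 9 secretory epithelial markers were present. They held 17.4% to 26.9% of a library's summed counts in LPS P11 and 16.3% to 25.3% in saline P11 without library 2. At P10 they held 48.3% to 58.0% in LPS and 44.6% to 58.6% in saline. Csn2, Csn1s1, Wap, Lalba and Elf5 were each lower at P11, with no overlap of the days apart from library 2. The mean log2 value of all 9 did overlap, at 16.52 to 16.98 in LPS P11 and 16.37 to 16.90 in saline P11 without library 2. It was 16.86 to 17.51 in LPS P10 and 16.71 to 17.28 in saline P10. The summed share thus does not stand for all 9 markers. The summed normalised count of 11 neutrophil markers was 5927 to 20050.0 in LPS P11, 10140.0 to 33360.0 in saline P11 without library 2, 78.4 to 784.5 in LPS P10 and 46.9 to 231 in saline P10. Mpo was at 0 in LPS P11, Elane in saline P11, and both were at 0 at P10. The 11 macrophage and monocyte markers summed to 6226 to 15540.0 in LPS P11, 7411 to 46350.0 in saline P11 without library 2, 558 to 2188 in LPS P10 and 746 to 1210.0 in saline P10, with Marco at 0 throughout. The 6 myoepithelial markers summed to 7760.0 to 11680.0 in LPS P11, 10040.0 to 12850.0 in saline P11 without library 2, 958 to 1954 in LPS P10 and 1018 to 1627 in saline P10, where Oxtr was at 0 in LPS P10. The 7 fibroblast and adipocyte markers in the table summed to 30.2 to 63.1 in LPS P11, 33.9 to 105.4 in saline P11 without library 2, 0 to 8.65 in LPS P10 and 2.14 to 11.9 in saline P10, with Dcn and Adipoq at 0 throughout. The sums of lymphocyte, endothelial, skin keratinocyte and red blood cell markers overlapped between the days. The summed secretory share moved with every difference between P11 and P10 given here. So did the neutrophil, macrophage and monocyte, myoepithelial, and fibroblast and adipocyte sums. The part of these in the differences was not tested. In such mixed samples, fewer cells of a type and less RNA per cell cannot be told apart. Library 2 of the saline P11 group stood apart from its label: over 14022 genes it correlated at 0.98 to 0.99 with the 10 P10 libraries and at 0.87 to 0.93 with the 9 other P11 libraries. Its neutrophil sum was 180.4 and its myoepithelial sum 2364. Differences of single genes between the days, and LPS effects on each day, are in some cases also given without library 2. These are the cases where leaving it out ended a call, turned a sign or moved the difference by over 1.5 times. For the differences of the LPS effects, ranges over leaving out each library are given at the end where the sign turned.

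Between the days, 8 of the 10 genes changed, and they did so in both treatments. Nr3c1, Fkbp5, Zbtb16 and Klf9 were lower at P11 than at P10. Dusp1, Errfi1, Hsd11b1 and Hsd11b2 were higher, and Tsc22d3 and Sgk1 did not pass the test. The test was limma's moderated test on the deposited log2-scale values, adjusted by Benjamini-Hochberg over all 14022 genes, with a threshold of 0.05. By that test 52.9% of all genes changed in LPS dams (4332 higher and 3081 lower at P11), and 25.6% were higher and 21.2% lower in saline dams. The median difference of the 10 genes was 0.35 in LPS dams and 0.24 in saline dams on the log2 scale, against 0.10 in LPS dams and 0.05 in saline dams over all genes. Without library 2 of the saline P11 group, 56.7% of all genes passed in saline dams, the median difference of the 10 genes was 0.37 and their count was again 4 higher and 4 lower.

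**Figure D1:**
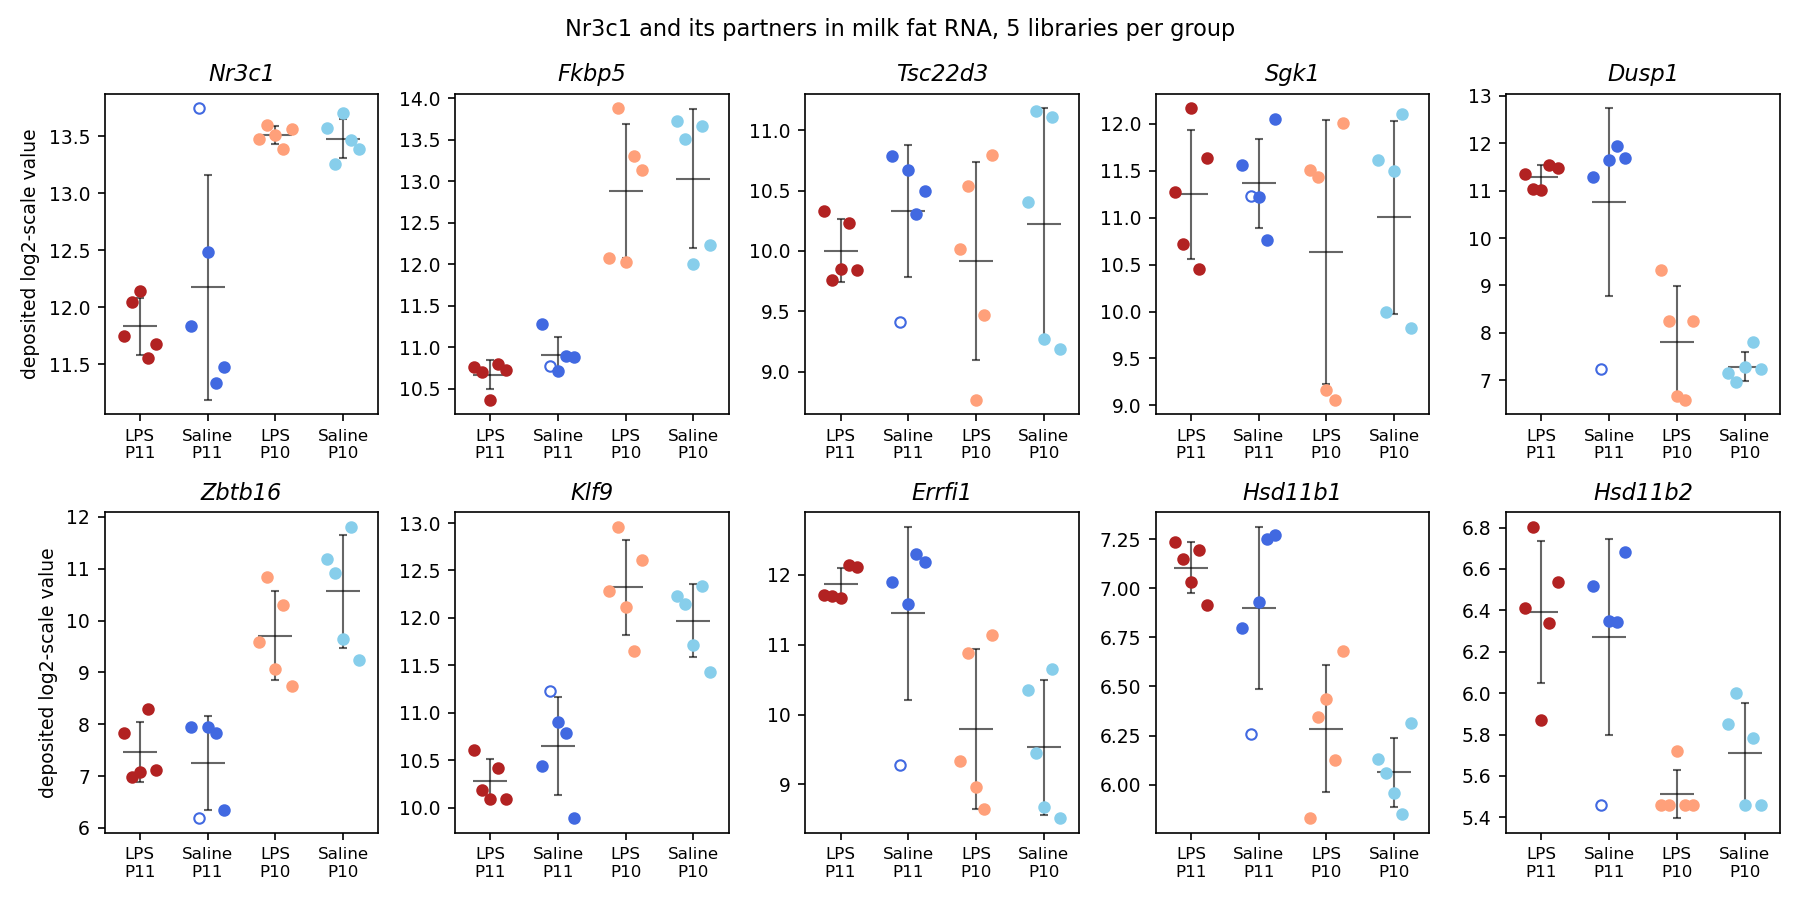
Deposited log2-scale value (vertical axis) of each of the 10 genes in every library, by group (horizontal axis); circles are libraries, the open circle is library 2 of the saline P11 group, and the bars give the mean and SD of 5 libraries. Nr3c1, Fkbp5, Zbtb16 and Klf9 sit lower in the P11 groups, Dusp1, Errfi1 and Hsd11b1 sit higher, and the open circle lies with the P10 libraries for Nr3c1, Dusp1 and Errfi1 but with the P11 libraries for Fkbp5.

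Nr3c1, the receptor itself, is described first. Values per library are normalised counts, got back from the deposited values, and carry no correction for gene length, so levels are compared between groups and not between genes. Nr3c1 had 3341, 4147, 4425, 2916 and 3186 in LPS P11 libraries 1 to 5, and 3569, 13656, 5643, 2488 and 2755 in saline P11. At P10 its counts were 11323, 12304, 11602, 10647 and 11990.2 in LPS, and 12095, 9669, 13271, 11256 and 10657 in saline. Every P11 library except library 2 of the saline group lay below every P10 library, and library 2 lay above all of them. On the log2 scale Nr3c1 fell in LPS dams (difference −1.68 ± 0.30, SE, adjusted p = 0.000178) and in saline dams (−1.304 ± 0.30, adjusted p = 0.00192, and −1.70 ± 0.18, adjusted p = 1.21e-07, without library 2). At P11 the highest library had 1.52 times the count of the lowest in LPS and 2.27 times in saline without library 2, whereas at P10 the libraries lay closer, at 1.16 times in LPS and 1.37 times in saline. Across deviations from the group means in 19 libraries, the genes most like Nr3c1 among 7745 compared were Pank3 (Pearson r = 0.90), Prkaa2 (0.87) and Rims4 (0.86).

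Fkbp5 encodes an immunophilin that binds the receptor complex, lowers its affinity for hormone and is itself induced by the receptor. It had 1649.7, 1574, 1233, 1691 and 1605 normalised counts in LPS P11, and 2390.4, 1665, 1586, 1817 and 1798 in saline P11. The P10 libraries had 4211, 14993, 4066, 10009.7 and 8891 in LPS, and 13493, 11555, 4015, 12919 and 4721 in saline. All 10 P11 libraries, library 2 included, were below all 10 P10 libraries. The P10 libraries were far apart among themselves in both treatments, with libraries 1 and 3 of LPS and 3 and 5 of saline at the low end. The difference of Fkbp5 on the log2 scale was −2.21 ± 0.35 (adjusted p = 5.85e-05) in LPS dams, −2.12 ± 0.35 (adjusted p = 0.000192) in saline dams and −2.09 ± 0.37 (adjusted p = 7.87e-05) in saline dams without library 2.

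The promoter of Fkbp5 is shown because this gene is the best known readout of the receptor. It is the stretch of 250 bases before an annotated start, from RefSeq on GRCr8, at chr20:6543556-6543805 on the minus strand, all in lower case since none of the motifs searched was in it.
Fkbp5: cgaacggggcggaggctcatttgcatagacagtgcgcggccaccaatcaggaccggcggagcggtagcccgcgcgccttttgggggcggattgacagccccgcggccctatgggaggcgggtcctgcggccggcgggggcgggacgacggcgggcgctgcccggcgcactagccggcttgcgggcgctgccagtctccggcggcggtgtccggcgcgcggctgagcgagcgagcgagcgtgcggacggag
The core hexamer of the glucocorticoid response element (AGAACA, on either strand) was in 0 of the 12 promoter windows of 300 bases that RefSeq's table held for 7 of the 10 genes, and in 20.7% of all 33469 windows.

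Zbtb16 encodes the zinc finger transcription factor PLZF and is a strong glucocorticoid target in many tissues. It had 147, 53.2, 62.2, 233 and 64.2 normalised counts in LPS P11, and 168, 11.4, 167, 149.5 and 16.7 in saline P11. At P10 it had 685, 1737, 454, 1169 and 344 in LPS, and 2259, 1841, 719.8, 3515 and 517 in saline. The days did not overlap, and library 2 of the saline P11 group had the lowest value of all 20 libraries. On the log2 scale Zbtb16 differed by −2.25 ± 0.51 (adjusted p = 0.00123) in LPS dams, by −3.31 ± 0.51 (adjusted p = 0.000128) in saline dams and by −3.04 ± 0.51 (adjusted p = 4.23e-05) in saline dams without library 2.

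Klf9, a Krüppel-like transcription factor induced by glucocorticoid and thyroid hormone, also fell. Its normalised counts were 1476, 1079.8, 1005, 1286 and 1001 in LPS P11, and 1298, 2321, 1823, 1684 and 862 in saline P11. At P10 they were 4897, 7895, 4339, 3119.7 and 6156 in LPS, and 4722, 4436, 3278, 5089 and 2667 in saline. No P11 library reached the lowest P10 library, and library 2 was the highest at P11. The difference was −2.04 ± 0.25 on the log2 scale (adjusted p = 1.02e-05) in LPS dams and −1.32 ± 0.25 (adjusted p = 0.000431) in saline dams, where it was −1.47 ± 0.25 (adjusted p = 3.86e-05) without library 2.

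Among the induced genes 2 went the other way. Dusp1, a phosphatase that switches off MAP kinases, had 2511, 2025, 1974, 2886 and 2784 normalised counts in LPS P11, and 2413, 75.6, 3135, 3820.3 and 3195 in saline P11. It had 558, 221, 33.3, 28.5 and 221 in LPS P10, and 67.4, 52.6, 79.6, 144 and 76.7 in saline P10. The 9 P11 libraries other than library 2 were above every P10 library, and library 2 lay inside the P10 range. Dusp1 was higher at P11 by 3.47 ± 0.68 on the log2 scale (adjusted p = 0.000334) in LPS dams. In saline dams it was higher by 3.47 ± 0.68 (adjusted p = 0.000537), and by 4.35 ± 0.39 (adjusted p = 1.77e-08) without library 2.

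The Dusp1 promoter is shown because this gene had the highest rise among the 10. It is the stretch of 250 bases before the annotated start, from RefSeq on GRCr8, at chr10:17184603-17184852 on the plus strand, with a cyclic AMP response element (TGACGTCA, 124 bases before the start) and an E-box (CACGTG, 107 bases before it) in capitals. Both genes were picked for display after their values were seen.
Dusp1: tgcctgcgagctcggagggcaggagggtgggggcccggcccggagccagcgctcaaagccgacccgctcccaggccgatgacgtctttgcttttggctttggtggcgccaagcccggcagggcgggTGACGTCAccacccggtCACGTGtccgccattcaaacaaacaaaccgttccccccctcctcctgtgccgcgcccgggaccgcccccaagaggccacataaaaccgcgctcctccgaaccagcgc
Of the 12 windows, 1 held the cyclic AMP response element and 1 the E-box, both that of Dusp1, while 1.83% and 6.42% of all windows held them. An AP-1 site (TGANTCA) was in 2 of the 12, those of Klf9 and Sgk1, and in 7.33% of all. Each of these motifs but the glucocorticoid hexamer reads the same on both strands, and the matches are descriptions of the letters only.

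Errfi1, which encodes an inhibitor of the EGF receptor family, had 3257, 3246, 3169, 4413 and 4349.5 normalised counts in LPS P11, and 3743, 538, 2984, 4930.3 and 4559 in saline P11. It had 559, 1804, 415, 318 and 2166 in LPS P10, and 1226, 611, 327, 1520.3 and 284 in saline P10. Again library 2 alone of the P11 libraries lay inside the P10 range. Errfi1 was higher at P11 by 2.07 ± 0.57 on the log2 scale (adjusted p = 0.00477) in LPS dams and by 1.92 ± 0.57 (adjusted p = 0.00931) in saline dams, and by 2.46 ± 0.48 (adjusted p = 0.000183) without library 2.

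For 2 classical targets the days could not be told apart. Tsc22d3 encodes GILZ, an anti-inflammatory leucine zipper protein. It had 1201, 782, 837, 1116 and 831 normalised counts in LPS P11, and 1684, 596, 1538, 1178 and 1357 in saline P11. At P10 it had 948, 1396, 352, 624 and 1690.2 in LPS, and 1268, 2199.9, 531, 2119 and 498 in saline. The P11 libraries lay inside the wide P10 range, and the difference was 0.09 on the log2 scale (95% interval −0.77 to 0.94, adjusted p = 0.884) in LPS dams and 0.11 (−0.74 to 0.96, adjusted p = 0.867) in saline dams. Without library 2 the saline difference was 0.34 (−0.51 to 1.19).

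Sgk1 encodes a kinase that raises sodium channel activity. It had 2384, 1597, 4519, 1317 and 3090.4 normalised counts in LPS P11, and 2939, 2325, 2309, 1649 and 4157 in saline P11. It had 2823, 2687, 488, 449 and 4038 in LPS P10, and 3039, 931, 2815, 4308 and 819.6 in saline P10. Each group held libraries near the top of the range, and the 4 libraries under 1000 were all from P10. The difference between the days was 0.61 (95% interval −0.56 to 1.79, adjusted p = 0.37) in LPS dams and 0.36 (−0.81 to 1.53, adjusted p = 0.627) in saline dams. These intervals leave room for a difference of more than 1 log2 unit.

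The genes of both enzymes that turn the hormone over were higher at P11. Hsd11b1, which in most tissues regenerates active corticosterone, had 75.4, 67.6, 57.5, 71.7 and 48.7 normalised counts in LPS P11, and 40.5, 13.8, 49.8, 76.7 and 79.0 in saline P11. It had 2.89, 17.1, 20.98, 9.52 and 33.5 in LPS P10, and 9.64, 7.74, 5.31, 3.26 and 15.8 in saline P10. All P11 libraries but library 2 were above all P10 libraries. The difference was 0.82 ± 0.18 on the log2 scale (adjusted p = 0.000909) in LPS dams and 0.84 ± 0.18 (adjusted p = 0.00106) in saline dams, and 0.998 ± 0.157 (adjusted p = 1.93e-05) without library 2. The deposited scale compresses low counts, so these log2 differences understate the ratio of the counts.

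Hsd11b2, which inactivates corticosterone, had 19.8, 41.1, 3.57, 16.8 and 25.8 normalised counts in LPS P11, and 24.8, 0, 17.2, 16.9 and 33.5 in saline P11. It was at 0 in libraries 1, 2, 4 and 5 of LPS P10 and at 1.45 in library 3. In saline P10 it had 3.21, 6.20, 0, 2.18 and 0. The days overlapped through library 3 of LPS P11 and library 2 of saline P11. Hsd11b2 was higher at P11 by 0.88 ± 0.19 on the log2 scale (adjusted p = 0.000867) in LPS dams and by 0.56 ± 0.19 (adjusted p = 0.022) in saline dams, and by 0.76 ± 0.15 (adjusted p = 0.000249) without library 2. The saline call ended when any 1 of saline P10 libraries 3 and 5 or saline P11 libraries 1 and 5 was left out, with an adjusted p of 0.058 to 0.0688. H6pd, whose enzyme supplies the cofactor that lets Hsd11b1 regenerate hormone, was higher at P11 by 1.49 ± 0.32 (adjusted p = 0.000815) in LPS dams and by 1.42 ± 0.32 (adjusted p = 0.00161) in saline dams. It had 22.3 to 157 normalised counts in LPS P11 and 61.7 to 171 in saline P11 without library 2, which was at 0, against at most 3.86 in any P10 library.

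**Figure D2:**
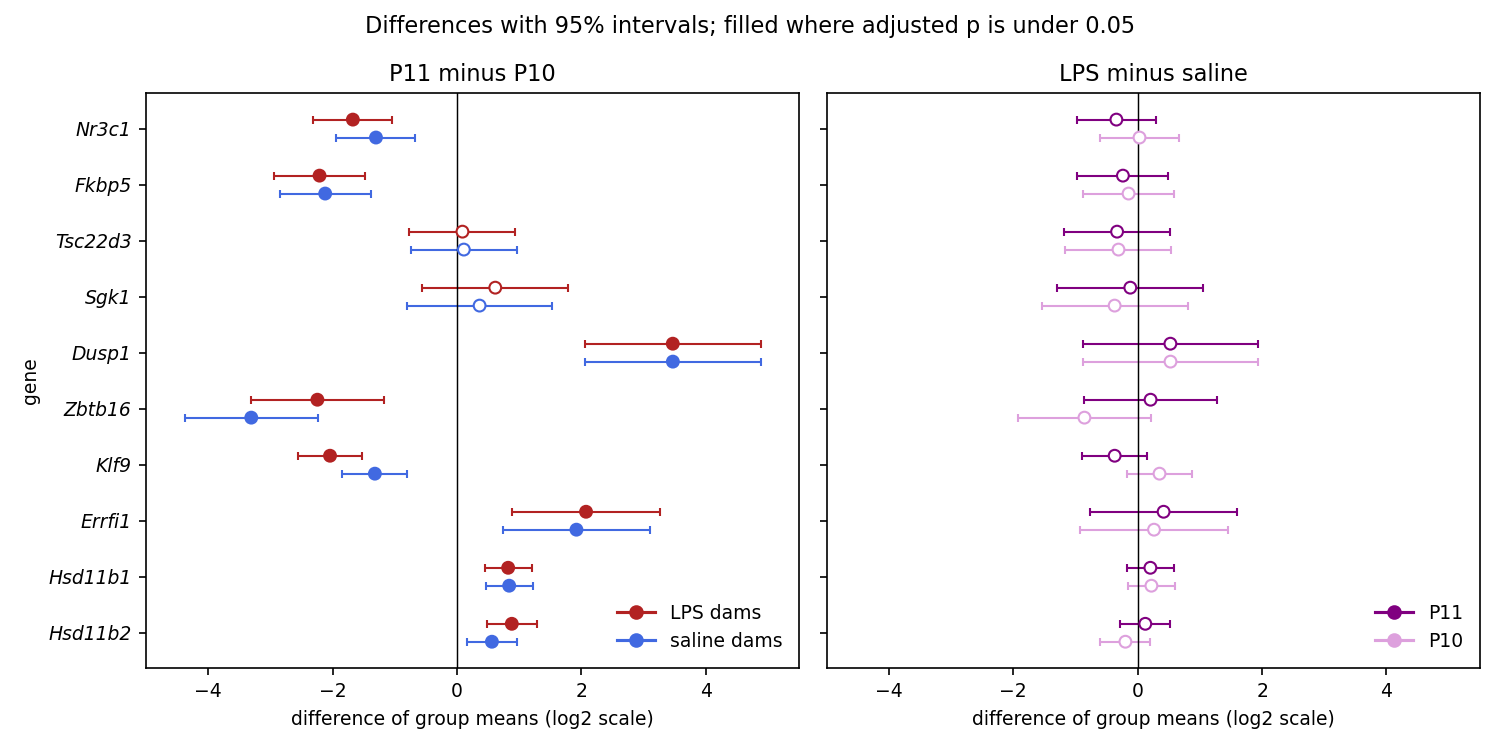
Differences of group means on the log2 scale (horizontal axis) with 95% intervals for each of the 10 genes (vertical axis), P11 minus P10 on the left and LPS minus saline on the right. Filled circles have a limma adjusted p under 0.05: 8 genes pass between the days in each treatment, from −3.31 for Zbtb16 to 3.47 for Dusp1 in saline dams, and none passes between LPS and saline on either day.

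How the libraries are scaled bears on the directions between the days. When each library was instead expressed as a share of its own summed counts, a setting added after the data were seen, the median difference of all genes moved to 1.06 in LPS dams and 0.69 in saline dams. The calls among the 10 genes then split as 6 higher and 0 lower in LPS dams and 6 higher and 2 lower in saline dams. Of all 14022 genes, 10107 were called in LPS dams and 8494 in saline dams in this setting, in either direction. On that scale the fall of Nr3c1 was not seen: it differed by −0.04 ± 0.23 in LPS dams and by −0.19 ± 0.23 in saline dams. Fkbp5 differed by −0.61 ± 0.38 (adjusted p = 0.164) in LPS dams and by −1.03 ± 0.38 (adjusted p = 0.0261) in saline dams. Zbtb16 differed by −1.10 ± 0.61 (adjusted p = 0.117) in LPS dams and by −2.59 ± 0.61 (adjusted p = 0.00149) in saline dams. Klf9 was not called in either treatment, at −0.45 ± 0.22 in LPS dams and −0.24 ± 0.22 in saline dams. Tsc22d3 was called higher at P11, by 1.67 ± 0.47 in LPS dams and 1.21 ± 0.47 in saline dams, and so was Sgk1, by 2.25 ± 0.54 in LPS dams and 1.48 ± 0.54 in saline dams.

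Relative to the median of all genes on that scale, the 4 genes that fell stood below it in both treatments. In LPS dams Nr3c1 stood at −1.10, Fkbp5 at −1.67, Zbtb16 at −2.16 and Klf9 at −1.52 from the median. In saline dams Nr3c1 stood at −0.88, Fkbp5 at −1.72, Zbtb16 at −3.28 and Klf9 at −0.93. Dusp1, Errfi1 and Hsd11b1 stood above the median, at 4.02, 2.66 and 0.46 in LPS dams and at 3.94, 2.38 and 0.60 in saline dams. Hsd11b2 did not, at −0.25 in LPS dams and −0.01 in saline dams.

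Library 2 of the saline P11 group divided the 10 genes. Between the 10 P10 libraries and the 9 other P11 libraries, 7 of the 10 genes had ranges that did not overlap, as did 30.7% of all genes tested. For those genes the place of library 2 was set on a line from the P10 mean (0) to the P11 mean (1) of the log2-scale values. Nr3c1 stood at −0.15, Dusp1 at −0.08, Errfi1 at −0.17 and Hsd11b1 at 0.09, all at the P10 end. Fkbp5 stood at 1.01 and Zbtb16 at 1.49, at or beyond the P11 end, and Klf9 stood between the ranges at 0.52. Over all 4310 such genes the median place was 0.05, and library 2 was nearer the P11 mean in 7.52% of them. Among the 1987 that were lower at P11, the median place was 0.06 and 8.05% were nearer the P11 mean. This comparison was chosen after the values were seen, rests on 1 library and has no test.

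**Figure D3:**
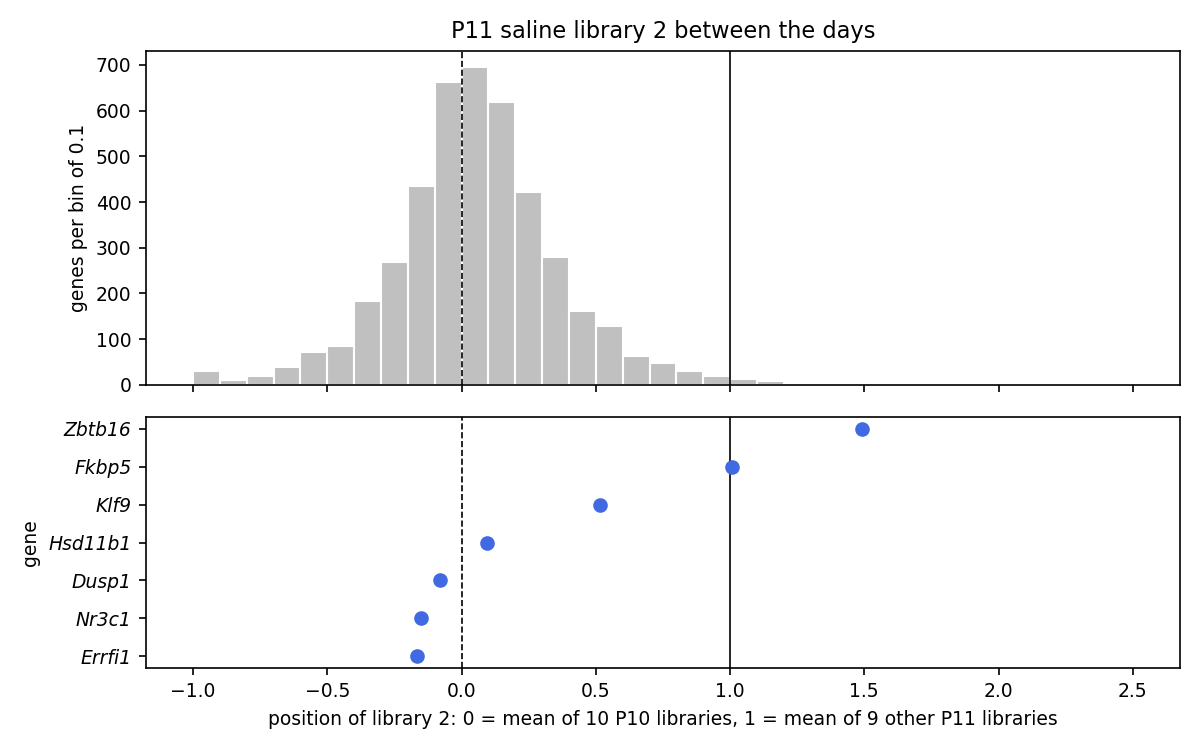
Place of library 2 of the saline P11 group on the line from the mean of the 10 P10 libraries (0, dashed) to the mean of the 9 other P11 libraries (1, solid), on the log2 scale. The upper panel counts 4310 genes whose P10 and P11 ranges do not overlap, in bins of 0.1 with values beyond the axis in the end bins, around a median of 0.05; the lower panel shows the 7 genes described, with Fkbp5 at 1.01 and Zbtb16 at 1.49.

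LPS did not move any of the 10 genes past the threshold, 24 h or 2 h after the injection. At P11, 0 of the 10 were called by limma, beside 0.0856% of all genes, and 0 had an unadjusted p under 0.05, which 1004 of all genes had. At P10, 0 of the 10 were called, beside 0% of all genes, and 0 had an unadjusted p under 0.05, which 622 of all genes had. The authors' deposited DESeq2 tables called more genes for LPS than this fit. They give 48 genes at P10 and 19 at P11 an adjusted p under 0.05, and none of the 10 was among them. For no gene of the 10 did the LPS libraries lie wholly apart from the saline libraries. That was so for 0.649% of all genes at P11, for 2.19% at P11 without library 2 and for 1.01% at P10. The difference of the LPS effects, P11 minus P10, was called for 0 of the 10 genes and for 0.0357% of all genes. Unadjusted p was under 0.05 for 0 of the 10 there and for 635 of all genes.

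The intervals show how large an LPS effect this fit leaves room for. The spread of each gene was estimated over all groups together. The P10 intervals thus also carry the spread that library 2 adds to the saline P11 group. For Nr3c1 the SD on the log2 scale was 0.08 in LPS P10 and 0.17 in saline P10. It was 0.25 in LPS P11 and 0.99 in saline P11, or 0.52 there without library 2. At P11 the receptor Nr3c1 differed by −0.34 on the log2 scale (95% interval −0.98 to 0.29), and by 0.05 (−0.32 to 0.42) without library 2. At P10 it differed by 0.03 (−0.61 to 0.66). Fkbp5 differed by −0.24 (−0.97 to 0.49) at P11 and by −0.15 (−0.88 to 0.59) at P10. An LPS effect of more than 1 log2 unit on these 2 genes lies outside each of these intervals.

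Of the other targets, Klf9 had a narrower interval and the rest wider ones. Zbtb16 differed by 0.21 (95% interval −0.86 to 1.28) at P11 and by −0.86 (−1.93 to 0.21) at P10. Klf9 differed by −0.37 (−0.89 to 0.15) at P11, by −0.22 (−0.74 to 0.29) at P11 without library 2 and by 0.35 (−0.17 to 0.87) at P10, and the difference of these effects, −0.72, had the smallest unadjusted p of the 10, 0.0549 (adjusted p = 0.968). Dusp1 differed by 0.53 (−0.89 to 1.94) at P11, by −0.35 (−1.18 to 0.47) at P11 without library 2 and by 0.53 (−0.89 to 1.94) at P10. For Dusp1 at P10, LPS libraries 1, 2 and 5 lay above every saline library and LPS libraries 3 and 4 below every one.

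Errfi1 differed by 0.42 (95% interval −0.77 to 1.60) at P11, by −0.12 (−1.12 to 0.87) at P11 without library 2 and by 0.26 (−0.92 to 1.45) at P10. Sgk1 differed by −0.12 (−1.29 to 1.05) at P11 and by −0.37 (−1.54 to 0.81) at P10. Hsd11b1 differed by 0.20 (−0.17 to 0.58) at P11, by 0.04 (−0.29 to 0.37) at P11 without library 2 and by 0.22 (−0.16 to 0.60) at P10. Hsd11b2 differed by 0.12 (−0.28 to 0.52) at P11 and by −0.20 (−0.60 to 0.20) at P10. Leaving out library 2 also turned the sign of the P11 difference of Zbtb16, to −0.06, and of Hsd11b2, to −0.08.

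Tsc22d3 differed by −0.33 (95% interval −1.18 to 0.52) at P11 and by −0.31 (−1.16 to 0.54) at P10. Without library 2 the P11 difference was −0.56 (−1.41 to 0.29, adjusted p = 0.662), with only LPS library 1, at 1201, above the lowest of the 4 saline libraries, at 1178. Tsc22d3 was the 1 gene of the 10 in the authors' deposited table for P11, which lists genes with an unadjusted p under 0.05. The authors' deposited table gives it a log2 fold change of −0.579 ± 0.182 (p = 0.00146, adjusted p = 0.206), whose direction its header does not state. None of the 10 was in the authors' deposited table for P10.

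The mineralocorticoid receptor gene Nr3c2, which binds corticosterone as well, was followed beside the 10. It had 128, 181, 158, 164 and 154 normalised counts in LPS P10, and 335, 211, 229, 294 and 327 in saline P10. The LPS libraries were all below the saline libraries, and the difference was −0.60 ± 0.19 on the log2 scale (unadjusted p = 0.00501, adjusted p = 0.963), so it did not pass over all genes. The authors' deposited table for P10 gives Nr3c2 a log2 fold change of −0.828 ± 0.198 with an adjusted p of 0.0125. At P11 it had 62.1, 84.9, 102, 59.6 and 54.5 in LPS, and 53.0, 190.2, 101, 62.9 and 68.4 in saline, which overlapped (difference −0.17 ± 0.19, and 0.01 ± 0.15 without library 2). Per1, a clock gene with glucocorticoid response elements, differed by −0.64 ± 0.31 at P11 (unadjusted p = 0.0519), by −0.33 ± 0.25 (unadjusted p = 0.204) at P11 without library 2 and by −0.51 ± 0.31 at P10. Cebpd, a transcription factor of the acute phase response, had 10679.5 and 15872 in libraries 2 and 5 of LPS P10, against 579 to 1734 in the other 3 and 762.1 to 1516 in saline P10 (difference 1.198 ± 0.618, adjusted p = 1).

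Within a day the targets varied from library to library. At P11 the highest LPS library had 1.37 times the Fkbp5 count of the lowest, 1.54 times that of Tsc22d3, 1.39 times that of Errfi1 and 3.43 times that of Sgk1. In saline P11 without library 2 these ratios were 1.51 for Fkbp5, 1.43 for Tsc22d3, 1.65 for Errfi1 and 2.52 for Sgk1, and with it 2.82 for Tsc22d3 and 9.16 for Errfi1. At P10 the LPS libraries spanned 3.69 times for Fkbp5, 4.801 times for Tsc22d3, 6.82 times for Errfi1 and 8.99 times for Sgk1. The saline P10 libraries spanned 3.36 times for Fkbp5, 4.42 times for Tsc22d3, 5.36 times for Errfi1 and 5.26 times for Sgk1. For Dusp1 the libraries spanned 1.46 times in LPS P11 and 1.58 times in saline P11 without library 2, against 19.6 times in LPS P10 and 2.73 times in saline P10. Without library 2 the libraries of these 5 targets thus lay closer together at P11 in both treatments. In saline dams this sets 4 P11 libraries against 5 P10 libraries, and such a ratio can only grow as libraries are added. With library 2, Dusp1 spanned 50.6 times and Errfi1 9.16 times in saline P11, wider than in saline P10. Zbtb16 spanned 4.39 times in LPS P11 and 10.01 times in saline P11 without library 2, against 5.05 times in LPS P10 and 6.80 times in saline P10. Klf9 spanned 1.47 times in LPS P11 and 2.11 times in saline P11 without library 2, against 2.53 times in LPS P10 and 1.91 times in saline P10. These 2 genes lay closer together at P11 in LPS dams and wider apart at P11 in saline dams, and none of these differences in spread was tested.

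Pairs of the 10 genes were compared over deviations from the group means, with exact permutation within groups and Benjamini-Hochberg adjustment over all 90 pairs of both days. At P11, over 9 libraries without library 2, Errfi1 was low where Nr3c1 was high (Pearson r = −0.92, Spearman rho = −0.93, exact permutation p = 0.000347 for each, adjusted p = 0.0313, two-sided). The r was −0.86 without the 2 libraries farthest from the median. At P10 the same pair had r = 0.26 over 10 libraries (exact permutation p = 0.471).

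Klf9 and Errfi1 were high in the same P10 libraries (r = 0.91, rho = 0.95, exact permutation p = 0.000764 for each, adjusted p = 0.0344). The r was 0.90 without the 2 farthest libraries. At P11 that pair had r = −0.30 (exact permutation p = 0.553). Of the 45 pairs at P10, 33 had a positive r and 9 an unadjusted exact permutation p under 0.05, among them Fkbp5 with Zbtb16 (r = 0.80, adjusted p = 0.295) and Fkbp5 with Tsc22d3 (r = 0.77, adjusted p = 0.314). Of the 45 pairs at P11, 20 had a positive r and 2 an unadjusted p under 0.05. Pairs share their libraries, and differences in depth or cell makeup between libraries were not removed.

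**Figure D4:**
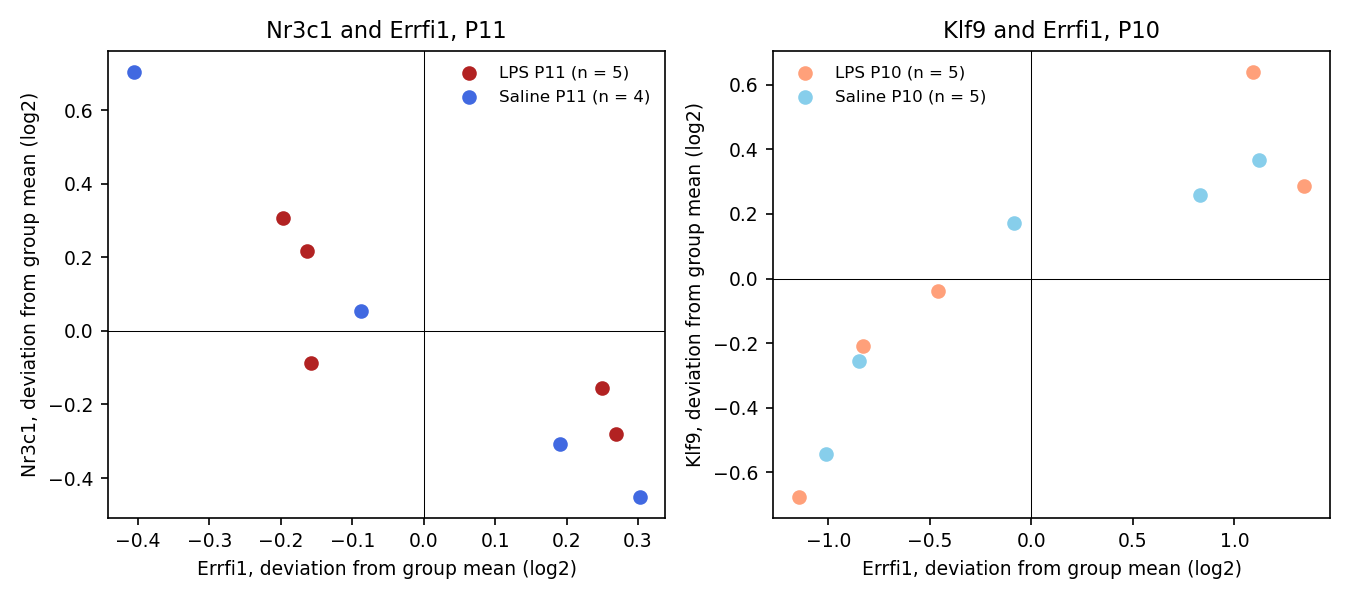
Deviation of each library from its group mean on the log2 scale for the 2 pairs that passed the adjusted threshold, Nr3c1 against Errfi1 at P11 (left, 9 libraries, r = −0.92) and Klf9 against Errfi1 at P10 (right, 10 libraries, r = 0.91). Points are libraries, coloured by treatment, and both treatments lie along each trend.

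The chaperones of the receptor, taken from a list of 10, went both ways between the days. In LPS dams 5 were higher and 3 lower at P11, and in saline dams 4 were higher and 2 lower (4 and 4 without library 2). As shares of the library's summed counts, 9 were higher and 0 lower in LPS dams, and 8 were higher and 0 lower in saline dams. On that scale 10107 of all 14022 genes were called in LPS dams and 8494 in saline dams, in either direction. Every list count on that scale, here and below, is to be read beside that background. Dnaja1 and Hsp90ab1, which fold and hold the receptor ready for hormone, were higher in saline dams by 1.34 ± 0.24 (adjusted p = 0.000276) and 0.97 ± 0.20 (adjusted p = 0.000798). Fkbp4, the immunophilin that helps the receptor into the nucleus and competes with Fkbp5, was lower (difference −1.33 ± 0.28, adjusted p = 0.001), as was the phosphatase gene Ppp5c (difference −0.86 ± 0.19, adjusted p = 0.00124). Fkbp4 had 4575 to 7312 normalised counts in LPS P11 and 3989 to 6473 in saline P11 without library 2, against 12930.0 to 20550.0 in LPS P10 and 15380.0 to 18040.0 in saline P10.

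Of 10 coregulators, 1 was higher and 5 lower in LPS dams, and 2 were higher and 4 lower in saline dams. The coactivator genes Carm1 (0.70 ± 0.14, adjusted p = 0.000574) and Crebbp (0.62 ± 0.24, adjusted p = 0.0405) were higher in saline dams. The corepressor gene Ncor1 (−0.60 ± 0.14, adjusted p = 0.002) was lower. With shares of the summed counts, 10 of 10 coregulators in LPS dams and 8 of 10 in saline dams were called higher, and 0 lower in either. Most of all 14022 genes were also called on that scale, 10107 in LPS dams and 8494 in saline dams.

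Of 11 genes of steroid handling and other steroid receptors, 6 were higher and 4 lower in LPS dams, and 4 were higher and 4 lower in saline dams (6 and 4 without library 2). With shares of the summed counts, 7 were higher and 0 lower in LPS dams, and 7 were higher and 2 lower in saline dams. In saline dams the progesterone receptor gene Pgr was higher at P11 (1.21 ± 0.19, adjusted p = 0.000142). Nr3c2 (−1.13 ± 0.19, adjusted p = 0.000214) and the oestrogen receptor gene Esr1 (−1.89 ± 0.44, adjusted p = 0.00185) were lower. Serpina6, which encodes the corticosteroid-binding globulin of plasma, was at the lowest value in all 20 libraries.

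A further 24 glucocorticoid-induced genes were mixed: 8 were higher and 4 lower in LPS dams, and 5 were higher and 4 lower in saline dams (7 and 4 without library 2), with a median of 0.28 on the log2 scale in LPS dams and 0.32 in saline dams. As shares of the library's summed counts, 16 were higher and 2 lower in LPS dams, and 17 were higher and 2 lower in saline dams. Anxa1, an anti-inflammatory phospholipid-binding protein gene, was higher in saline dams by 5.38 ± 0.71 (adjusted p = 6.29e-05), and Il1r2, the decoy receptor for interleukin-1, by 3.86 ± 0.85 (adjusted p = 0.0013). The metabolic regulators Klf15 (−3.50 ± 0.54, adjusted p = 0.000131) and Lpin1 (−2.90 ± 0.55, adjusted p = 0.000437) were lower, as was Per1 (−0.9997 ± 0.31, adjusted p = 0.0127). Anxa1 and Il1r2 are also abundant in myeloid cells, whose markers were higher in every P11 library but library 2 of the saline group, and the part of those cells was not tested.

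Of 11 inflammatory genes that glucocorticoids repress, 6 were higher and 0 lower in LPS dams, and 9 were higher and 0 lower in saline dams, with a median of 0.93 in LPS dams and 1.49 in saline dams. The neutrophil and macrophage marker sums were also higher in every P11 library but library 2 of the saline group. The part of those cells in these genes was not tested. The chemokine genes Cxcl1 (4.03 ± 0.60, adjusted p = 0.00011) and Cxcl2 (3.61 ± 0.67, adjusted p = 0.000382) were higher in saline dams. Cxcl1 had 2485 to 2949 normalised counts in LPS P11 and 1433 to 3885 in saline P11 without library 2, against 21.1 to 174 in LPS P10 and 12.5 to 18.4 in saline P10. At P10 the authors' deposited table lists Cxcl1 with a log2 fold change of 2.17 ± 0.488 between the treatments (adjusted p = 0.00624).

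Of 8 partners of Sgk1, 2 were higher and 6 lower in LPS dams, and 2 were higher and 5 lower in saline dams. With shares of the summed counts, 5 were higher and 1 lower in LPS dams, and 3 were higher and 1 lower in saline dams. Nedd4l, a ubiquitin ligase for the sodium channel that Sgk1 restrains, was higher in saline dams by 2.77 ± 0.39 (adjusted p = 7.77e-05). The channel subunit genes parted, Scnn1a at 0.69 ± 0.18 (adjusted p = 0.00372) and Scnn1b at −1.57 ± 0.31 (adjusted p = 0.000583). Scnn1g, also a subunit gene, went with Scnn1b. It had 18.35 to 134.3 normalised counts at P11 without library 2, against 188.1 to 1567 at P10. Scnn1a was low and overlapped between the days, with 58.2 to 193 at P11 without library 2 and 25.8 to 67.3 at P10. Mtor, the kinase of the complex that activates Sgk1, differed by −0.84 ± 0.20 (adjusted p = 0.00206).

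Of 12 genes of the MAP kinase and EGF receptor pathways, on which Dusp1 and Errfi1 act, 6 were higher and 2 lower in LPS dams, and 6 were higher and 3 lower in saline dams. With shares of the summed counts, 11 were higher and 0 lower in LPS dams, and 10 were higher and 0 lower in saline dams. Dusp6, another MAP kinase phosphatase gene (2.79 ± 0.49, adjusted p = 0.000257), and the kinase gene Mapk3 (2.08 ± 0.28, adjusted p = 6.29e-05) were higher in saline dams. The genes of the kinase p38, Mapk14 (−1.29 ± 0.22, adjusted p = 0.000205), and of the receptor Erbb2 (−0.58 ± 0.15, adjusted p = 0.00423) were lower.

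Of 11 genes of the prolactin and STAT5 pathway, with which the glucocorticoid receptor acts on milk protein genes, 0 were higher and 7 lower in LPS dams, and 0 were higher and 5 lower in saline dams (7 lower without library 2, and 8 lower in a fit without the mean-variance trend). The median was −2.54 in LPS dams and −2.15 in saline dams. As shares of the library's summed counts, 3 were higher and 4 lower in LPS dams, and 2 were higher and 4 lower in saline dams. The prolactin receptor gene Prlr (−2.45 ± 0.44, adjusted p = 0.000292) and the transcription factor genes Stat5a (−2.42 ± 0.40, adjusted p = 0.000187) and Stat5b (−1.32 ± 0.19, adjusted p = 8.84e-05) were lower in saline dams. Prlr had 168 to 475 normalised counts in LPS P11 and 73.1 to 317 in saline P11 without library 2, against 1666 to 3003 in LPS P10 and 1447 to 2684 in saline P10. The beta-casein gene Csn2 differed by −2.14 ± 2.43 (adjusted p = 0.496) in saline dams and did not pass, but by −2.14 ± 0.40 (adjusted p = 0.000433) without the mean-variance trend, and its P11 libraries other than library 2 were all below its P10 libraries. Without library 2 the saline counts of the coregulators, inflammatory genes, Sgk1 partners and MAP kinase genes were unchanged. Between LPS and saline, 0 genes of these 8 lists were called by limma on either day.

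**Figure D5:**
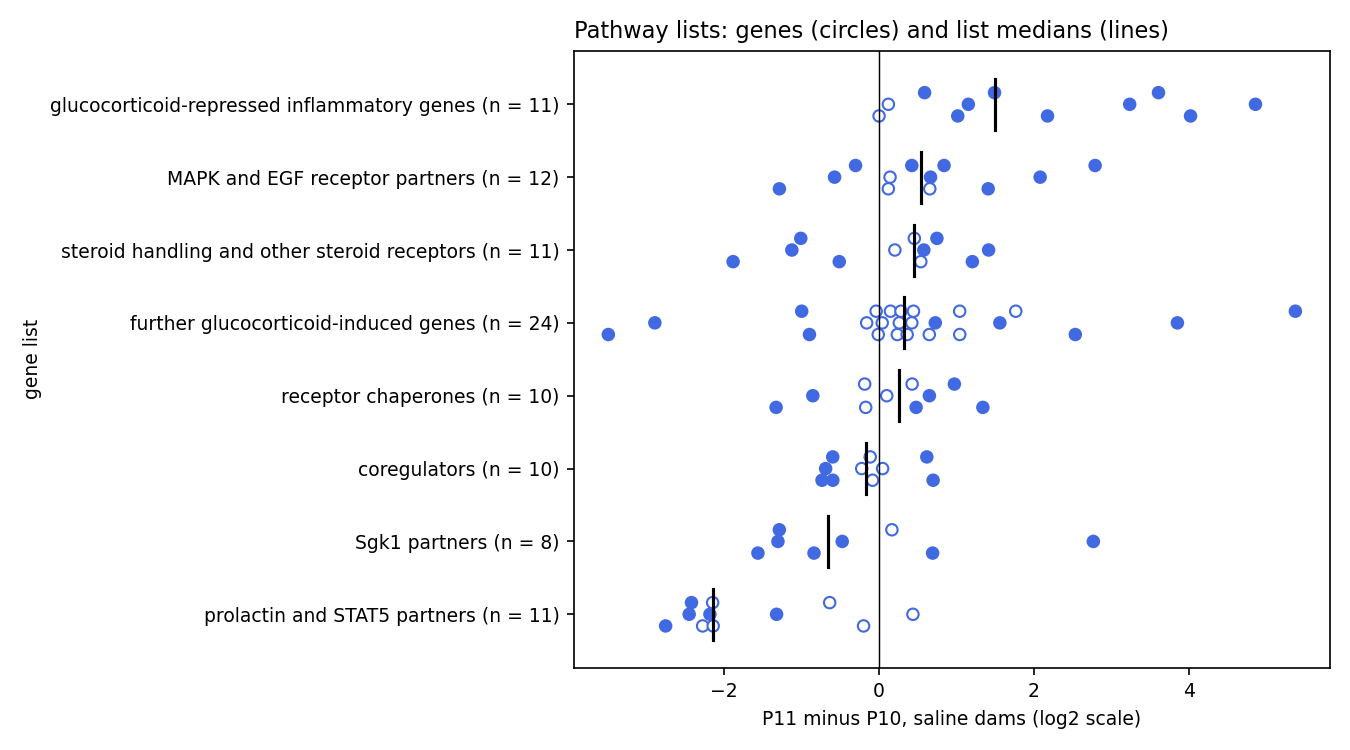
P11 minus P10 difference in saline dams on the log2 scale (horizontal axis) for the genes of 8 pathway lists (rows), each circle a gene, filled where the limma adjusted p is under 0.05, and each line a list's median. Medians run from 1.49 for the inflammatory genes to −2.15 for the prolactin and STAT5 partners.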

How the data were processed

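Fat-layer RNA from rat milk was sequenced as 20 libraries. DESeq2 and the build rn6 were used by the authors, per the submitters' processing notes, which give no version. Which aligner and annotation were used is not given in the sources used here. Expression was deposited as log2-scale values; their form, a shared lowest value of 5.46, is that of a variance-stabilizing transformation, which was inverted to give normalised counts. Depth per library is unknown; 10743 to 12985 genes were above the lowest value in a library. The authors also deposited, per the file headers, a log2 fold change, its error, a test score, a p-value and another unit, a mean normalised count, for genes of their LPS comparison on each day. Those headers do not state the direction; its sign was that of LPS minus saline here in 15 of 15 listed genes of the lists at P10 and 9 of 10 at P11.

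A limma 3.58.1 model (R 4.3.3) with 1 mean per group and a mean-variance trend was fitted to all genes, with two-sided p-values adjusted by Benjamini-Hochberg over 14022 genes. The fit was also run on simulated data with independent libraries and few changed genes. Those data held no outlying library and no shared dams, so that run cannot show how the fit behaves with them. P-values measure the spread between libraries. The 10 genes and the lists were chosen with earlier results of these data known. Named are all 10 genes, the 2 genes of smallest p in each direction of each list between the days in saline dams, list genes called for LPS, and Per1, Cebpd, Nr3c2, Fkbp4, H6pd, Serpina6, Stat5a, Prlr and Csn2. Scnn1g is named outside that rule, beside the other channel subunit genes. Hsp90aa1, Hspa8, Ncoa3, Ep300, Tiparp, Tnf and Rictor were not analysed here. Alternatives were other pseudocounts, filters, scalings and weights, fits of 2 groups, and leaving out each library. The value of 1 listed gene is not reported here.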

Additional observations from a re-analysis of the deposited data

Results flagged for a closer look

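Of 40 groups of 5 libraries, 5 held a library whose gap to its nearest neighbour exceeded 0.71 of the group's log2 range, a limit that chance passes in about 1 in 20 groups. Library 2 of saline P11 gave 3 of them. It had 75.6 normalised counts of Dusp1, 538 of Errfi1 and 0 of Hsd11b2, each the lowest of its group. Library 3 of LPS P11 had the lowest Fkbp5 of its group, 1233. Library 3 of LPS P10 had 1.45 of Hsd11b2, where the other 4 were at 0.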

How the results depend on the processing

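No paired analysis was possible because the expression columns carry no dam number. The count of called genes among the 10 stayed within 1.5 times its first value under every alternative run, for each of the 5 comparisons. That count was 0 throughout for the LPS effects and their difference. Between the days, shares of the summed counts changed which genes were called and their directions. That setting gave 6 higher and 0 lower in LPS dams and 6 higher and 2 lower in saline dams, against 4 and 4 at first. Nr3c1 and Klf9 were then not called, and Tsc22d3 and Sgk1 were. Single genes moved more. With libraries as shares of their sums, the sign turned at P10 for Nr3c1 (−0.29) and Errfi1 (−0.033), at P11 for Sgk1 (0.0797), and for the difference of the LPS effects of Nr3c1 (0.15), Fkbp5 (0.42), Tsc22d3 (0.47), Dusp1 (0.46) and Hsd11b1 (0.24). Library weights turned the P11 effect of LPS on Dusp1 (−0.25), Zbtb16 (−0.12) and Errfi1 (−0.068) and the difference of the effects for Errfi1 (−0.28). The difference of effects of Dusp1, near 0, was 0.089 with a pseudocount of 1, 0.047 with 10 and 0.093 after quantile normalisation. Centring on medians turned Tsc22d3 between the days, to −0.18 in LPS and −0.11 in saline dams. For Hsd11b2 in saline dams the adjusted p was 0.084 with centring, 0.281 with quantile normalisation and 0.0784 in a fit of the 2 groups alone, and for Hsd11b1 in LPS dams it was 0.133 with quantile normalisation. A mean value filter of 6.5 removed Hsd11b2. Leaving out 1 library at a time turned the sign of the following. The LPS effect at P11 ranged from −0.55 to 0.051 for Nr3c1, −0.35 to 0.080 for Sgk1, −0.35 to 0.82 for Dusp1, −0.059 to 0.38 for Zbtb16, −0.12 to 0.63 for Errfi1 and −0.080 to 0.25 for Hsd11b2. At P10 it ranged from −0.027 to 0.086 for Nr3c1, −0.40 to 0.069 for Fkbp5, −0.71 to 0.023 for Sgk1 and −0.0735 to 0.55 for Errfi1. The difference of the effects ranged from −0.58 to 0.0215 for Nr3c1, −0.31 to 0.17 for Fkbp5, −0.31 to 0.24 for Tsc22d3, −0.14 to 0.60 for Sgk1, −0.88 to 0.38 for Dusp1, −0.39 to 0.49 for Errfi1 and −0.18 to 0.083 for Hsd11b1. Tsc22d3 between the days ranged from −0.20 to 0.31 in LPS dams and from −0.15 to 0.34 in saline dams. The cause of these changes was not tested, and none of the LPS values had an adjusted p under 0.05 in any setting. Of the lists in saline dams, centring gave 4 chaperones lower (2 in the first fit), 2 steroid genes higher (4) and 3 MAP kinase genes higher (6); quantile normalisation gave 5 inflammatory genes higher (9); no trend gave 8 prolactin genes lower (5). Depth is unknown, so no counting error could be given.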
